A study of Drosophila melanogaster with 35 samples.

Results

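The windows described here cover the euchromatin that borders pericentric heterochromatin on 4 chromosome arms of Drosophila melanogaster. A window was taken when its midpoint lay from 20.35 to 21.35 Mb on 2L, from 22 to just under 23 Mb on 3L, above 4.2 and up to 5.2 Mb on 3R, or from 20.4 to just under 21.4 Mb on X, in dm6 coordinates. This gave 401 of the 13391 windows in all, with 101 on 2L and 100 each on 3L, 3R and X, and each set is called a strip below. Replication timing (RT) of each 100-kb window, tiled at 10-kb steps, was the log2 ratio of reads from S phase nuclei to reads from G1 nuclei, so that a larger value means earlier replication. Distance was measured from the window midpoint to the edge of the strip nearest to the centromere. That edge is the limit of pericentric heterochromatin on 3L and 3R, while on 2L and X the limit of 22 Mb lies a further 650 and 600 kb towards the centromere.

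RT had been profiled in imaginal wing discs of female 3rd instar larvae and in follicle cells, the epithelium around the germline of the adult ovary. Wing discs came from Rif1- (Rif1 1/Rif1 2), Rif1PP1 (Rif1PP1/Rif1 1) and wild-type (yw) larvae. Mitotic follicle cells, sorted in S phase between 2C and 4C DNA content, came from Rif1-, Rif1PP1, Rif1-/+ (Rif1 2/CyO) and wild-type (OregonR) females. Endocycling follicle cells, sorted between 4C and 8C, came from Rif1- and wild-type females. Rif1PP1 is a form of Rif1 with an altered PP1 binding motif, carried over a null allele, and the heterozygote carried the CyO balancer, a rearranged chromosome that the other genotypes lacked. The 2 tissues also differed in wild-type strain, library kit and sequencing, which cannot be told apart from the tissue. Follicle cell libraries were sequenced on either of 2 instruments, so the instrument may also differ between follicle cell conditions. Each of the 9 conditions had 2 S phase samples but is deposited as 1 mean per window. No spread between replicates and no read depth could therefore be computed, no test was possible, and every difference below is a description of authors' means. G1 DNA of wing discs is named as the copy number control for the samples, but a Rif1- wing disc G1 sample is listed beside the wild-type one, and which of them divided the mutant wing disc values is not given in the sources used here. Follicle cell profiles share a denominator, wing disc G1 DNA, whose libraries were made with another kit than theirs. All 401 windows had a value in every condition, and none lay beyond 1 in absolute value.

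Pericentric heterochromatin is rich in repeats, poor in genes and replicates late in S phase in most cells. Rif1 is a chromatin-bound protein that brings protein phosphatase 1 (PP1) to replication origins, where the phosphatase counters the kinase that activates the MCM helicase. Loss of Rif1 is known to let late regions replicate earlier. Endocycles are rounds of S phase without division, and heterochromatin is copied incompletely in many endocycling fly cells.

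A stretch of DNA is shown for 1 window of each strip, the one whose RT was farthest from 0 in wild-type mitotic follicle cells, because the results below turn on these windows. Each is the stretch of 240 bases nearest to the window's midpoint without an annotated exon, on the plus strand of the RefSeq dm6 assembly, and capitals mark bases that the assembly masks as repeats.
2L inner-edge window, intron of Tsp39D, chr2L:21347241-21347480: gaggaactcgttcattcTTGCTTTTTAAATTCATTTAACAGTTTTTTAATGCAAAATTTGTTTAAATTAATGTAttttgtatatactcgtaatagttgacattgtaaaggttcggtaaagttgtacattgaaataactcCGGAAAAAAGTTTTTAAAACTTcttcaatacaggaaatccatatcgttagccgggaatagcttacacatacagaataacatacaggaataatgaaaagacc
3L valley window, intron of CG14459, chr3L:22599881-22600120: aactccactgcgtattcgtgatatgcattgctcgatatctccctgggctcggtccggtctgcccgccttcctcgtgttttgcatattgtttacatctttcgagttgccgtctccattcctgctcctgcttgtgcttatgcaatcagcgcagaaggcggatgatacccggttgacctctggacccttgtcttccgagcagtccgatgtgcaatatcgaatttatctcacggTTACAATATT
3R valley window, between protein-coding genes, chr3R:4569881-4570120: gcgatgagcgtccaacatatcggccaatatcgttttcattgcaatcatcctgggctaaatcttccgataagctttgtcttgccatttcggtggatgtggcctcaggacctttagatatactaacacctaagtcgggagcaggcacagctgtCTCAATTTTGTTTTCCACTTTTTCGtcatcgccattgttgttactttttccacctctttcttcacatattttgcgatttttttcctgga
X valley window, intron of shakB, chrX:20859881-20860120: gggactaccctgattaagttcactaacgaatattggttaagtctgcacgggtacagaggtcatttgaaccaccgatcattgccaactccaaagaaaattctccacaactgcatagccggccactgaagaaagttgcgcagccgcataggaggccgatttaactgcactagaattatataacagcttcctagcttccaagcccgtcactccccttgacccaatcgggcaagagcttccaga
The masked bases numbered 79 in the 2L stretch, 10 in the 3L stretch, 25 in the 3R stretch and 0 in the X stretch. GC content was 29.2% in the stretch from 2L and 42.9% in that from 3R, with 50.0% on 3L and 48.3% on X.

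In repeat content the strips resembled the arms they belong to more than the heterochromatin next to them. Masked repeats made up a mean of 16.2% of a window in the strip on 2L, against 37.9% in the first 1 Mb inside the pericentric limit and 16.7% in the rest of the arm. On 3L the shares were 15.8% in the strip, 36.4% inside the limit and 17.4% in the rest of the arm. On 3R they were 17.4%, against 38.9% inside and 15.7% in the rest, and on X 18.5%, against 27.1% inside and 20.3% in the rest. Windows inside the X limit held up to 64.2% unknown bases (N). These count as neither repeat nor coding, so both X shares there may be too low. Coding sequence followed the same order of strip and heterochromatin, with means of 17.9% of a window on 2L, 10.7% on 3L, 17.8% on 3R and 13.8% on X, against 5.3%, 3.0%, 2.2% and 6.2% inside the limits of the same arms. Over the rest of each arm it was 19.0% on 2L, 19.4% on 3L, 19.6% on 3R and 17.7% on X, so that the 3L strip lay nearer to the heterochromatin than to its arm in this measure. The strips held 1175 annotated genes wholly inside them, of which 406 were protein coding, with 121 on 2L, 87 on 3L, 109 on 3R and 89 on X. The label of euchromatin thus held for repeat content on all 4 arms, and for coding sequence on 2L, 3R and X. Composition was not even along a strip. Windows within 500 kb of the inner edge had a lower mean GC content than windows farther out on all 4 arms, with 40.4% against 42.9% on 2L, 42.5% against 45.1% on 3L, 40.8% against 42.6% on 3R and 41.9% against 42.3% on X.

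In wild-type cells every strip replicated earlier on average than the first 1 Mb of heterochromatin inside the limit of its arm. In wild-type mitotic follicle cells the strip means were 0.12 on 2L, -0.02 on 3L, 0.02 on 3R and 0.03 on X. They exceeded the means inside the limit by 0.17 on 2L, 0.13 on 3L, 0.30 on 3R and 0.28 on X. In wild-type wing discs the strips stood above the heterochromatin by 0.10 on 2L, 0.13 on 3L, 0.19 on 3R and 0.07 on X. The step was of a like size in wild-type endocycling follicle cells, at 0.15 on 2L, 0.09 on 3L, 0.31 on 3R and 0.33 on X. On 2L and X, 64 and 59 windows between strip and limit entered neither mean. In wild-type mitotic follicle cells they averaged 0.37 on 2L and 0.01 on X, with wide ranges of -0.35 to 2.31 on 2L and -1.80 to 1.36 on X. Windows inside the limit varied widely in these cells, with an SD of 0.48 on 2L and 0.47 on X. The lowest of them had -3.52 on 2L and -1.61 on X, so the steps on these arms are small beside this spread.

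This difference between strip and heterochromatin was absent or turned round in Rif1- and Rif1PP1 mitotic follicle cells. In Rif1- mitotic follicle cells the strip mean was 0.08 below the heterochromatin on 2L (difference of -0.08), 0.01 above it on 3L, and differed from it by -0.09 on 3R and -0.06 on X. In Rif1PP1 mitotic follicle cells the difference was -0.06 on 2L, -0.07 on 3L, -0.07 on 3R and -0.11 on X. Rif1-/+ mitotic follicle cells had a turned step on 2L (-0.13) and 3L (-0.18) and a positive one on 3R (0.12) and X (0.25). In Rif1- endocycling follicle cells the step was positive on all 4 arms, at 0.07 on 2L, 0.28 on 3L, 0.02 on 3R and 0.09 on X. Values on both sides of the border differed from wild type. On 3R, for example, the heterochromatin mean was -0.00 in Rif1- and -0.09 in Rif1PP1 mitotic follicle cells, against -0.28 in wild type, while the strip mean was -0.10 and -0.16 in the mutants, against 0.02 in wild type. In Rif1- wing discs the strips kept a positive difference from the heterochromatin, of 0.07 on 2L, 0.09 on 3L, 0.19 on 3R and 0.09 on X. In Rif1PP1 wing discs the difference was smaller on 2L (0.01), 3L (0.04) and X (0.01) than on 3R (0.14).

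Against the rest of their own arm, the strips stood at no fixed place in wild type. In wild-type wing discs the X strip was the late one, with a mean of -0.11, against 0.01 over the rest of the X, and 5.0% of its windows lay above the median of the rest. The 3R strip was on the early side in the same cells, with a mean of 0.05 and 70.0% of its windows above the median of the rest. In wild-type mitotic follicle cells the 2L strip was early, with 92.1% of its windows above the median of the rest of 2L. In Rif1PP1 mitotic follicle cells none of the windows of the strips on 3L and 3R reached that median (0%), and in Rif1- mitotic follicle cells 10 of 100 windows did on 3L and 9 of 100 on 3R.

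Most windows of the strips differed little between mutant and wild-type wing discs, but the share of higher windows exceeded that over all windows. To count changes, the 2 conditions of a comparison were quantile normalized to each other over all windows, and a window was called higher or lower when the normalized values differed by more than 0.1. In Rif1- wing discs 18 of the 401 windows (4.49%) were higher than in wild type and 2 (0.499%) were lower, against 2.79% higher and 4.6% lower among all windows. In Rif1PP1 wing discs 41 windows (10.2%) were higher and 15 (3.74%) lower than in wild type, against 5.93% higher and 6.62% lower among all windows. Of these, 23 higher and 4 lower windows lay on X. The higher windows lay mainly in valleys of the wild-type profile. On X, a run of 9 windows between 510 and 590 kb averaged -0.07 in Rif1- and -0.23 in wild-type wing discs, and it lies over shakB, an innexin gene whose gap junctions form electrical synapses. On 3R, 9 windows between 310 and 390 kb averaged 0.03 in Rif1- and -0.11 in wild-type wing discs, and 10 windows between 300 and 390 kb averaged 0.04 in Rif1PP1 and -0.11 in wild type. This 3R valley lies at CG34357. The lowest deposited value of each strip was nearer to 0 in the mutants on all 4 arms, with -0.09 on 2L, -0.08 on 3L, -0.04 on 3R and -0.16 on X in Rif1- discs and -0.06, -0.09, -0.01 and -0.12 on the same arms in Rif1PP1 discs, against -0.14, -0.17, -0.14 and -0.25 in wild type. The spread over arm windows outside the strips was also narrower in the mutants, with an SD of 0.07 in Rif1- and 0.06 in Rif1PP1, against 0.08 in wild type, and its part in these differences was not tested.

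At the 3L edge the mutant and wild-type wing discs parted most in Rif1PP1. The 5 windows from 10 to 50 kb averaged 0.08 in Rif1PP1 and -0.05 in wild-type discs. Farther out, 10 windows from 660 to 750 kb, which reach the teneurin gene Ten-m, averaged -0.07 in Rif1PP1 and 0.03 in wild type. The remaining windows called lower in wing discs need care. The window chr3R:5010001-5110000 near corto, which encodes a chromatin factor, had the largest drop in Rif1- discs (-0.79 after normalization), yet its deposited values were 0.16 in Rif1- and 0.18 in wild-type discs. In wild-type discs it ranked 2 of 13391 windows from the top, where normalization stretches small gaps. With windows beyond 1 left out of the normalization, none of the 401 windows was called lower in Rif1- discs (0%).

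**Figure D1:**
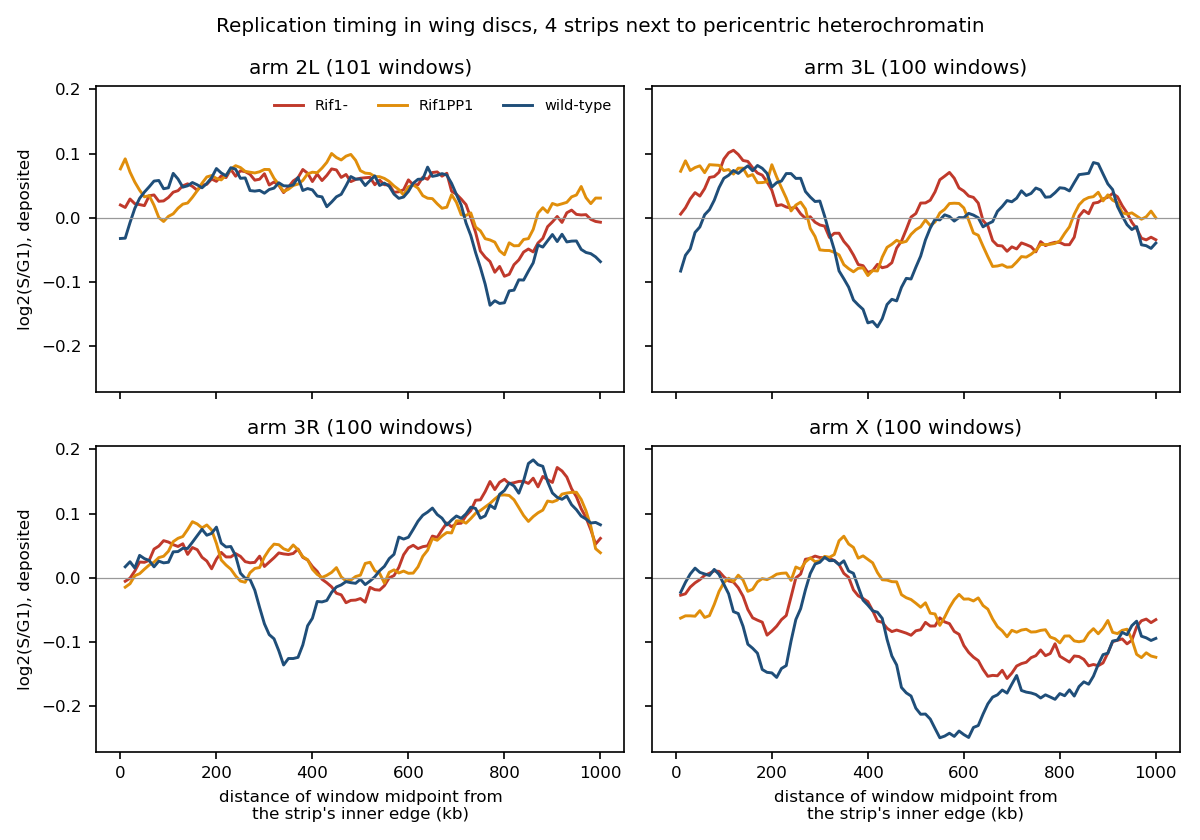
Deposited log2(S/G1) against distance from the inner edge of each strip in Rif1-, Rif1PP1 and wild-type wing discs, 1 line per genotype. The mutant lines lie above wild type in the X valley at 510 to 590 kb and in the 3R valley at 310 to 390 kb. On 2L the Rif1- line follows the wild-type shape closely (r of 0.94) and the Rif1PP1 line less so (r of 0.69).

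Distance from the inner edge of the strip did not order the wing disc values the same way on each arm. Pearson's r with distance describes overlapping windows and has no error. On X it was -0.73 in Rif1-, -0.70 in Rif1PP1 and -0.52 in wild-type discs, so that windows near the inner edge were the earlier ones of the strip. On 2L it was -0.56 in Rif1-, -0.48 in Rif1PP1 and -0.64 in wild type. On 3R the sign was the opposite, at 0.66 in Rif1-, 0.62 in Rif1PP1 and 0.60 in wild type. On 3L it was -0.39 in Rif1- and -0.40 in Rif1PP1, against 0.06 in wild type. Within the strips, no gradient towards later replication at the inner edge was therefore shared by the 4 arms in these cells. Beyond the strips of X and 2L, nearer to the limit, the averages were lower, but on 2L only weakly in the mutants. In wild-type discs the windows between strip and limit averaged -0.16 on X, against -0.06 in strip windows within 500 kb of the inner edge. On 2L these averages were -0.04 and 0.05, and windows beyond the strip ran from -2.21 to 0.18. The mutant discs had the same order on both arms. On 2L their averages were close, at 0.037 and 0.052 in Rif1- and 0.048 and 0.058 in Rif1PP1. On X they were -0.119 and -0.028 in Rif1- and -0.076 and -0.002 in Rif1PP1.

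Mitotic follicle cells showed the clearest change of the strips. In Rif1- mitotic follicle cells 212 of 401 windows (52.9%) were lower than in wild type and 0 were higher, against 15.0% lower and 13.4% higher among all windows. Within pericentric heterochromatin the balance was the other way, with 57.7% of windows higher and 17.6% lower. In Rif1PP1 mitotic follicle cells 307 windows (76.6%) were lower than in wild type and 23 (5.74%) higher, against 17.8% lower and 15.8% higher among all windows. Outside the strips and the heterochromatin, 13.0% of arm windows were lower in Rif1- and 14.8% in Rif1PP1. Both comparisons use the same wild-type profile, so they are not independent of each other.

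The strips on all 4 arms took part in this delay. On 2L the mean was -0.02 in Rif1- and -0.02 in Rif1PP1, against 0.12 in wild type, and all 101 windows had a lower deposited value in each mutant. On 3L it was -0.09 in Rif1- and -0.18 in Rif1PP1, against -0.02 in wild type, with 63 of 100 windows called lower in Rif1- and 90 in Rif1PP1. The 3R strip averaged -0.10 in Rif1- and -0.16 in Rif1PP1, against 0.02 in wild type, and 62 and 82 of its windows were called lower in these 2 genotypes. On X the mean was -0.02 in Rif1- and -0.01 in Rif1PP1, against 0.03 in wild type. The small X difference covers windows that moved in opposite directions.

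**Figure D2:**
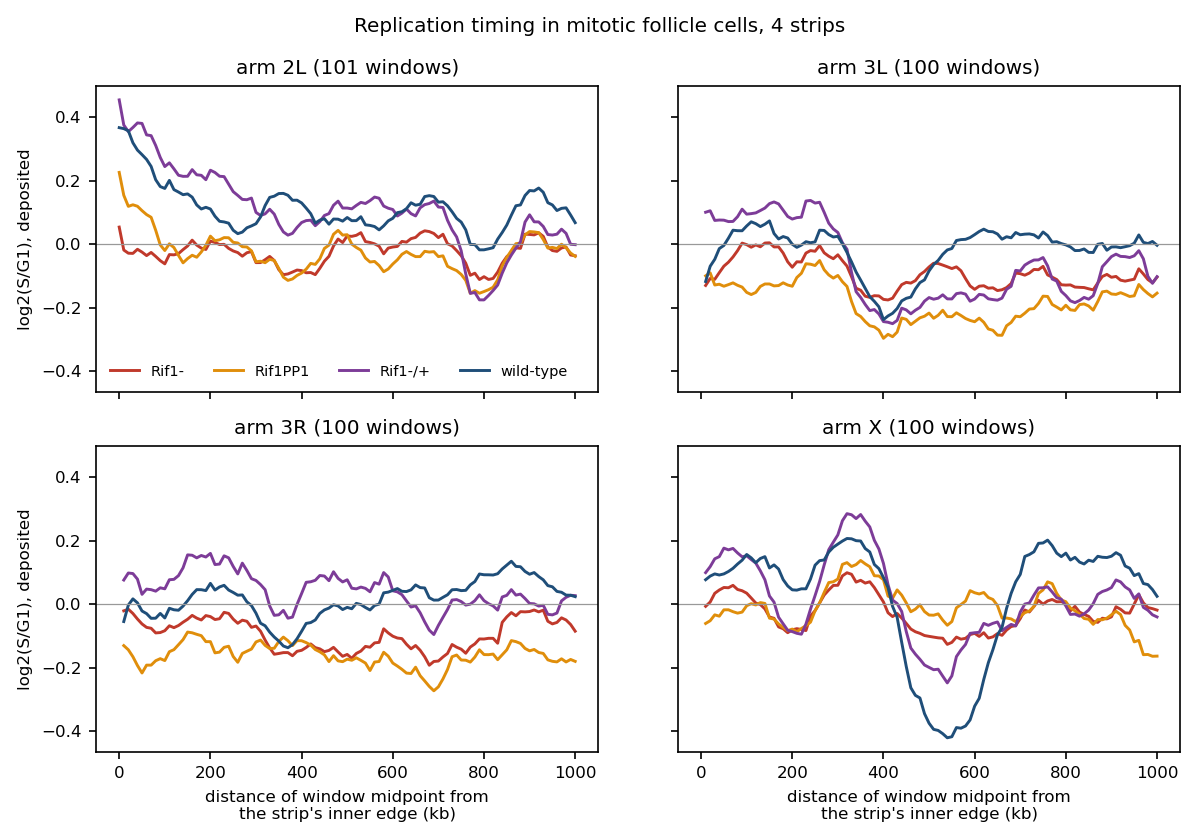
Deposited log2(S/G1) against distance from the inner edge of each strip in Rif1-, Rif1PP1, Rif1-/+ and wild-type mitotic follicle cells, 1 line per genotype. On 3L and 3R the Rif1PP1 line lies lowest over most of the strip, and on X the wild-type valley of -0.42 is shallower in the other 3 genotypes.

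On 3R the delay formed a long block. A run of 58 windows between 320 and 890 kb averaged -0.13 in Rif1- and 0.01 in wild-type cells, and a run of 57 windows between 440 and 1000 kb averaged -0.18 in Rif1PP1 and 0.04 in wild type. The deepest point lay close to laf, where the window chr3R:4830001-4930000 had -0.19 in Rif1- and 0.02 in wild type. The genes smash, which encodes a LIM domain protein, and cno, the fly afadin, both lie in the 3R strip. At smash the window value was -0.16 in Rif1- and -0.18 in Rif1PP1, against -0.02 in wild type. At cno it was -0.06 in Rif1- and -0.17 in Rif1PP1, against 0.03 in wild type.

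On 3L the outer part of the strip was delayed and the part near the border less so. A run of 44 windows between 570 and 1000 kb averaged -0.11 in Rif1- and 0.01 in wild type, and a run of 68 windows from 330 to 1000 kb averaged -0.21 in Rif1PP1 and -0.04 in wild type. Ten-m lay at the maximum of the change in both mutants, with -0.15 in Rif1- and -0.29 in Rif1PP1, against 0.03 in wild type. At olf413, the other very long gene of the strip, the values were -0.13 in Rif1- and -0.21 in Rif1PP1, against -0.01 in wild type. At jim, a zinc finger gene 190 kb from the border, they were -0.05 in Rif1- and -0.13 in Rif1PP1, against 0.02 in wild type. Of the 3L windows called lower in Rif1-, 10 had a deposited value above that of wild type, so their call rests on the normalization.

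On 2L the largest drop lay near the early inner edge in Rif1- but not in Rif1PP1. The window at the inner edge, chr2L:21300001-21400000, which holds the tetraspanin gene Tsp39D, had 0.05 in Rif1-, 0.23 in Rif1PP1, 0.46 in Rif1-/+ and 0.37 in wild-type mitotic follicle cells. It was the highest window of the strip in each of these 4 conditions. The largest difference in Rif1- lay 20 kb from the edge, with -0.03 against 0.36 in wild type. In Rif1PP1 it lay at 370 kb, with -0.11 against 0.15 in wild type. A valley near 800 kb was shared by most conditions, and its window chr2L:20500001-20600000 had -0.10 in Rif1-, -0.15 in Rif1PP1 and -0.18 in Rif1-/+ mitotic follicle cells, against -0.02 in wild type. Hr38, which encodes a nuclear receptor induced by neuronal activity, lies outside this valley. It had 0.02 in Rif1- and -0.04 in Rif1PP1, against 0.12 in wild type.

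The X strip held the deepest valley of the 4 strips in wild-type mitotic follicle cells, and there the mutants replicated earlier. At chrX:20810001-20910000, inside shakB, RT was -0.13 in Rif1-, -0.07 in Rif1PP1, -0.25 in Rif1-/+ and -0.42 in wild type. In Rif1PP1 a run of 23 windows between 430 and 650 kb was called higher, by 0.24 on average, and all 23 of the windows called higher in this genotype lay on X. In Rif1- the largest normalized rise in the valley was 0.09, under the threshold, although the deposited value at that window was -0.10 in Rif1- and -0.36 in wild type. The flank of the valley away from the border was delayed instead. A run of 27 windows from 680 to 940 kb averaged -0.02 in Rif1- and 0.14 in wild type, and a run of 32 windows from 690 to 1000 kb averaged -0.04 in Rif1PP1 and 0.13 in wild type. RunxA, a Runt-domain transcription factor gene on this flank, had 0.01 in Rif1- and 0.01 in Rif1PP1, against 0.15 in wild type. The range of the X strip, from its lowest to its highest window, was 0.23 in Rif1- and 0.30 in Rif1PP1, against 0.63 in wild type.

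Heterozygous Rif1-/+ mitotic follicle cells had changes in both directions. Of the 401 windows, 56 (14.0%) were higher than in wild type and 90 (22.4%) lower, against 15.5% higher and 17.3% lower among all windows. Arms differed. On 3R 26 of 100 windows were higher and 5 lower, where the mutants had none higher, and on 3L 7 were higher and 25 lower. At the border itself the heterozygote was the earlier one on both arms of chromosome 3, with 0.10 in Rif1-/+ and -0.12 in wild type at 10 kb on 3L, and 0.08 in Rif1-/+ and -0.05 in wild type at 10 kb on 3R. On X a run of 9 windows over shakB, from 560 to 640 kb, averaged -0.10 in Rif1-/+ and -0.30 in wild type. Rif1-/+ values fell with distance in every strip, with r of -0.80 on 2L, -0.56 on 3L, -0.61 on 3R and -0.34 on X. Wild type had r of -0.49 on 2L, 0.07 on 3L, 0.57 on 3R and -0.06 on X. The fall was not particular to the heterozygote. Rif1PP1 had r of -0.42 on 2L, -0.36 on 3L, -0.30 on 3R and -0.27 on X, the last being 0.07 with every 10th window. Rif1- mitotic follicle cells had r of 0.07 on 2L, -0.51 on 3L, -0.13 on 3R and -0.25 on X.

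Rif1- endocycling follicle cells departed from wild type in a way that differed between arms. Of the 401 windows, 56 (14.0%) were higher and 126 (31.4%) lower than in wild-type endocycling cells, against 24.4% higher and 26.5% lower among all windows. On 2L 0 of 101 windows were higher and 50 lower, and on X 7 were higher and 47 lower. On 3L 39 windows were higher and 4 lower, and on 3R 10 were higher and 25 lower. Pearson's r with distance in Rif1- was 0.71 on 2L, 0.04 on 3L, -0.02 on 3R and -0.08 on X. Wild-type endocycling cells had 0.26 on 2L, -0.09 on 3L, 0.47 on 3R and -0.06 on X. The lowest Rif1- window of each strip was below wild type on all 4 arms, but on X only slightly, with -0.24 in Rif1- and -0.21 in wild type. At chr2L:21290001-21390000, over the bHLH gene dimm, RT was -0.38 in Rif1- and 0.10 in wild-type endocycling cells. At the 3L border, chr3L:22940001-23040000 had -0.45 in Rif1- and -0.12 in wild type. In the 3R valley, chr3R:4510001-4610000 had -0.48 in Rif1- and -0.10 in wild type. These 3 windows ranked 263, 149 and 116 from the bottom of all 13391 windows in Rif1- endocycling cells.

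**Figure D3:**
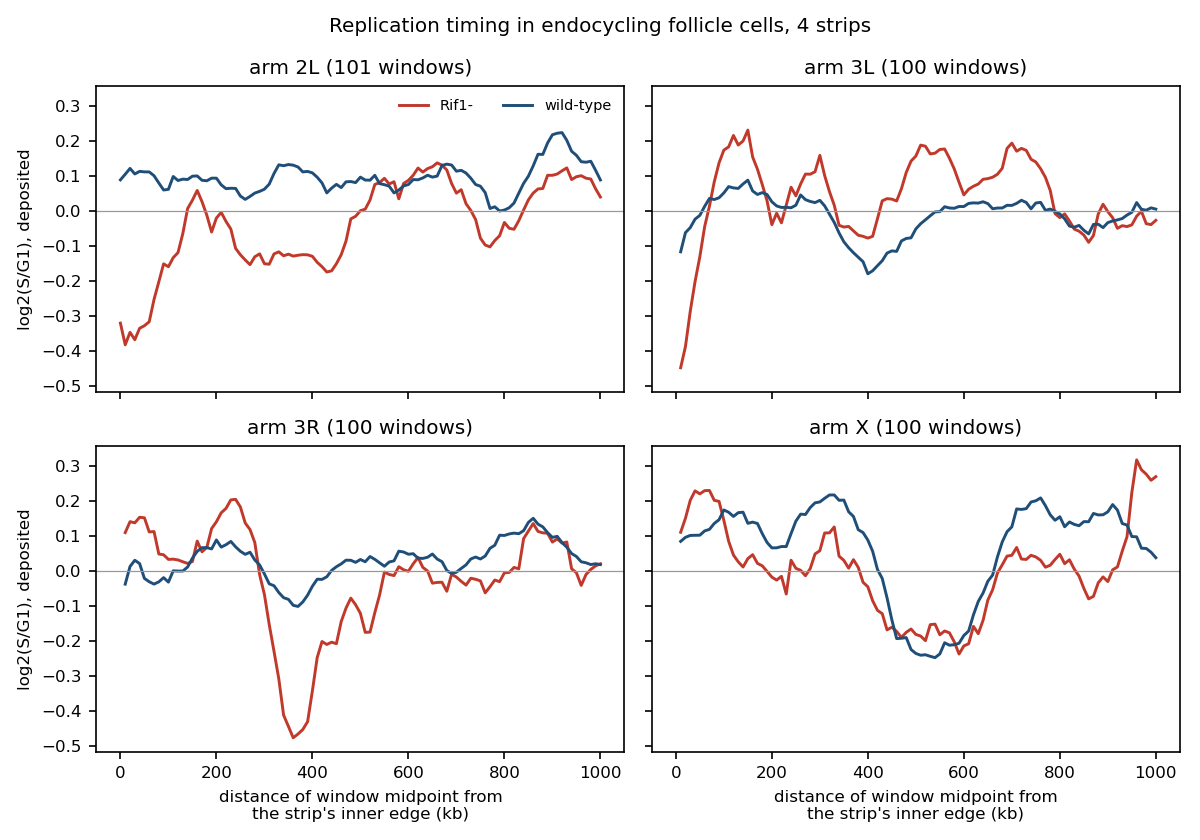
Deposited log2(S/G1) against distance from the inner edge of each strip in Rif1- and wild-type endocycling follicle cells, 1 line per genotype. The Rif1- line falls to -0.38 at the 2L edge, -0.45 at the 3L edge and -0.48 in the 3R valley, where wild type has 0.10, -0.12 and -0.10.

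GC content moved with RT in Rif1- endocycling cells. The lowest Rif1- window of the strip was the window of lowest GC content on 3L (36.5%), on 3R (37.0%) and on X (39.6%), and on 2L it lay 10 kb from it and had 37.2%. Across the overlapping windows of a strip, r between GC content and RT was 0.93 on 2L, 0.70 on 3L, 0.86 on 3R and 0.87 on X in Rif1- endocycling cells. In wild-type endocycling cells it was 0.18 on 2L, 0.13 on 3L, 0.68 on 3R and 0.35 on X. The same relation held beyond the strips, over the rest of each arm, with r of 0.77 on 2L, 0.61 on 3L, 0.80 on 3R and 0.36 on X in Rif1- endocycling cells, against 0.00 on 2L, -0.10 on 3L, -0.02 on 3R and -0.07 on X in wild type. Rif1PP1 mitotic follicle cells had the opposite sign, with r in the strips of -0.58 on 2L, -0.60 on 3L, -0.50 on 3R and -0.64 on X, against -0.50, 0.16, 0.79 and 0.38 in wild-type mitotic cells. Rif1- mitotic follicle cells had 0.23 on 2L, -0.20 on 3L, 0.40 on 3R and 0.32 on X. The part of GC content in the differences of these conditions was not tested.

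**Figure D4:**
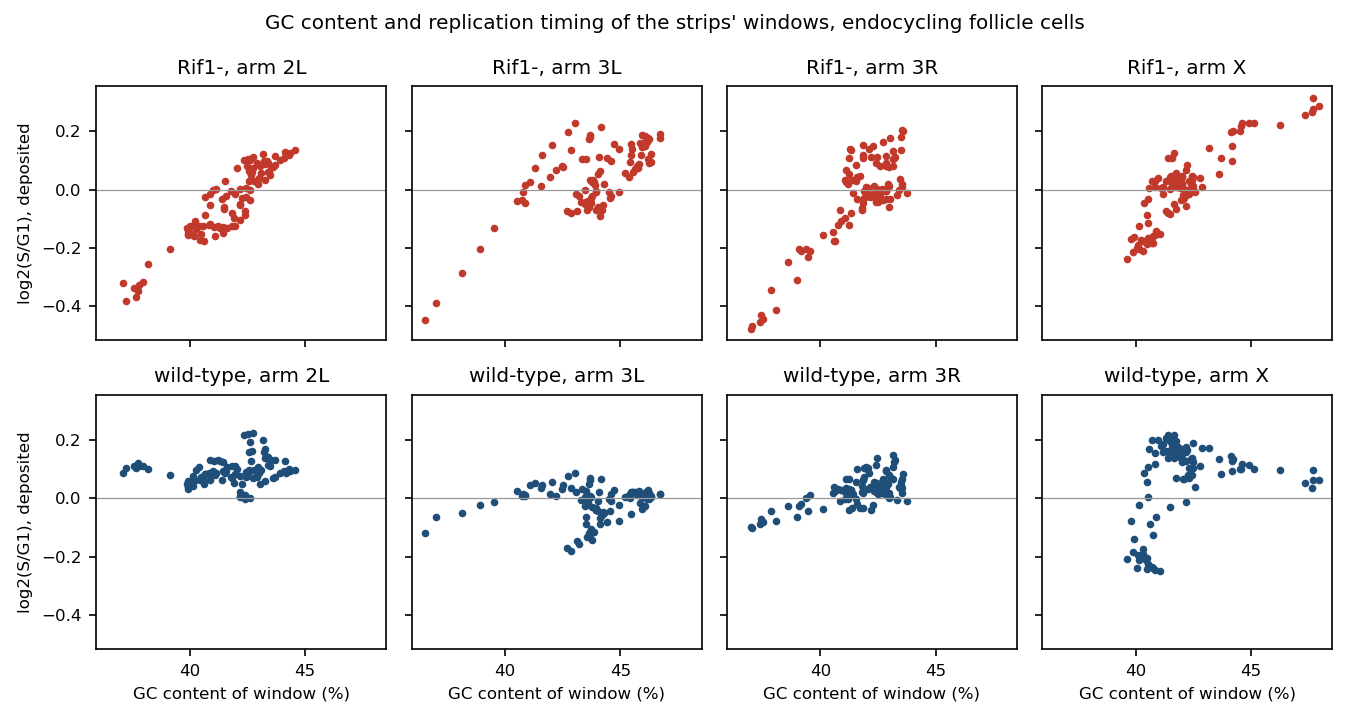
GC content of each window in percent against its deposited log2(S/G1) in Rif1- (top row) and wild-type (bottom row) endocycling follicle cells, 1 point per window and 1 panel per strip. Points rise with GC content in the top row, with r from 0.70 to 0.93, while r lies between 0.13 and 0.68 in the bottom row.

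Wild-type endocycling and mitotic follicle cells were close to each other in the strips. The authors state that the mitotic sample may also hold cells already in the endocycle, so the 2 samples need not be separate cell states. Testing over replicates, the authors found no window in the genome with differential RT between these samples. The calls here use the 0.1 cutoff alone, on means. After normalization 9 of 401 windows (2.24%) were higher and 11 (2.74%) lower in endocycling than in mitotic cells, against 1.44% higher and 1.84% lower among all windows. All 11 lower windows formed a run at the inner edge of 2L, from 0 to 100 kb, with a mean of 0.10 in endocycling and 0.28 in mitotic cells. The edge window over Tsp39D had 0.09 in endocycling and 0.37 in mitotic cells. All 9 higher windows lay over shakB on X, from 510 to 590 kb, with a mean of -0.23 in endocycling and -0.40 in mitotic cells. No window of the 3L or 3R strip passed the threshold. Profiles of the 2 samples had r of 0.96 on 3L, 0.96 on 3R and 0.99 on X over the 100 windows of each strip. On 2L r was 0.52 over 101 windows, and the profiles of these 2 samples share a G1 denominator.

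Between tissues the X strip had the most windows called. In wild-type mitotic follicle cells 107 of 401 windows (26.7%) were higher than in wild-type wing discs and 33 (8.23%) lower, against 17.1% higher and 18.9% lower among all windows. On X 72 of 100 windows were higher and 0 lower, and a run of 40 windows between 610 and 1000 kb had a mean of 0.08 in follicle cells, against -0.16 in wing discs. The shakB valley itself was late in either tissue, where RT was -0.42 for follicle cells and -0.23 for wing discs. On 2L 35 of 101 windows were higher in follicle cells, and the edge window at Tsp39D had 0.37 in follicle cells and -0.03 in wing discs. On 3L the profiles had a similar shape in both tissues, with r of 0.87. Both were latest over CG14459, with -0.24 at chr3L:22550001-22650000 of follicle cells and -0.17 at chr3L:22530001-22630000 in wing discs. Farther out they parted, where 5 windows from 850 to 890 kb were called lower in follicle cells. These windows averaged -0.01 in follicle cells and 0.08 in wing discs. On 3R 28 windows were called lower in follicle cells. Their deposited values were close, as at the corto window, with 0.14 in follicle cells and 0.18 in wing discs, where normalization gave a change of -3.32.

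**Figure D5:**
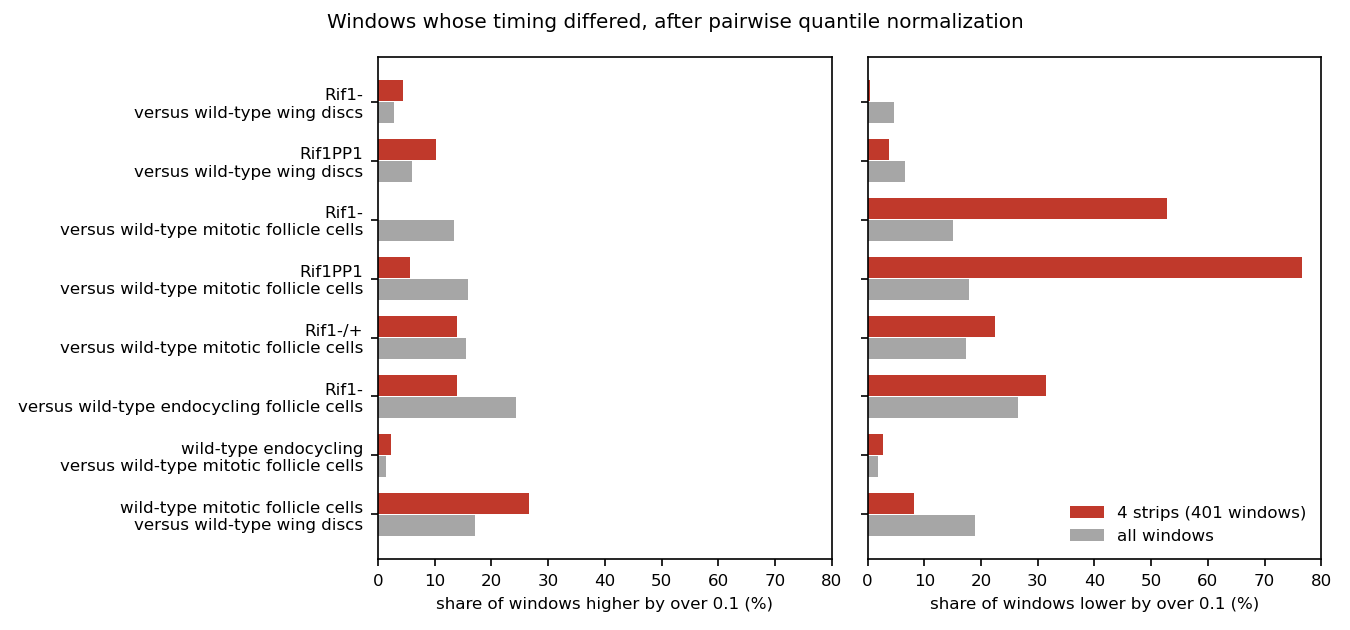
Share of windows in percent that were higher (left) or lower (right) by more than 0.1 after pairwise quantile normalization, for 8 comparisons. Red bars give the 401 windows of the 4 strips and grey bars all windows; the red bars for lower windows in Rif1- (52.9%) and Rif1PP1 (76.6%) mitotic follicle cells stand far above the grey ones.

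Some windows kept their place in nearly every condition. The 3L valley over CG14459 lay between 400 and 420 kb from the border in each condition but Rif1- endocycling follicle cells, where the border window was lower. At chr3L:22550001-22650000 RT was -0.08 in Rif1-, -0.09 in Rif1PP1 and -0.16 in wild-type wing discs. In mitotic follicle cells the same window had -0.17 in Rif1-, -0.30 in Rif1PP1, -0.24 in Rif1-/+ and -0.24 in wild type, and in endocycling cells it had -0.08 in Rif1- and -0.18 in wild type. The X peak at bves, a Popeye domain gene 330 kb from the edge, was above 0 in all conditions. Its window had 0.03 in Rif1-, 0.04 in Rif1PP1 and 0.03 in wild-type wing discs. In mitotic follicle cells it had 0.09 in Rif1-, 0.12 in Rif1PP1, 0.28 in Rif1-/+ and 0.21 in wild type, and in endocycling cells 0.12 in Rif1- and 0.22 in wild type. The 3R valley was not as steady, since in wing discs it was seen in wild type (-0.14 at CG34357) and not in Rif1- (0.04) or Rif1PP1 (0.05) at the same window.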

How the data were processed

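RT values were the deposited log2 ratios of S phase to G1 reads, 1 mean over 2 S phase replicates per condition and window. Per the methods, the authors aligned reads to dm6 with Bowtie2 2.3.2, filtered them with SAMtools 1.9, counted them with bedtools in 100-kb windows and normalized to read depth. The values had not been quantile normalized. The values carry no read depth, so intervals could not be computed. Which G1 sample divided mutant wing discs is not given in the sources used here.

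Calculations used numpy 2.4.6 and pandas 2.3.3 under Python 3.11.15, and plots matplotlib 3.10.9. Each of 8 comparisons was quantile normalized in pairs over all windows with both values, and windows over 0.1 in absolute difference were counted, a step tested on simulated data. Pericentric limits were 22 Mb on 2L and X, 23 Mb on 3L and 4.2 Mb on 3R. GC content and soft-masked bases came from the RefSeq dm6 sequence, whose arm lengths equal the last window ends, and genes from the Ensembl annotation. The windows, strips and lists were chosen with earlier results of these data known. Named genes were, per strip, the 4 longest protein-coding genes with a symbol other than a CG number and those nearest the highest and lowest windows of either mitotic wild-type tissue; named windows were the extremes of each condition and comparison. The genes dimm and laf were named for such windows. Alternatives were joint normalization of 9 conditions, centering on the median, deposited values, every 10th window, strips moved outward by 0.1 Mb and, chosen after seeing the data, normalization without windows beyond 1. RNA samples and 1 wing disc sample with conflicting phase labels were not used.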

Additional observations from a re-analysis of the deposited data

How the results depend on the processing

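No paired analysis was possible because each condition is 1 mean over its replicates. The shares of strip windows lower in Rif1- and Rif1PP1 mitotic follicle cells and in Rif1- endocycling cells stayed within 1.5 times under every alternative run, while the shares over all windows were not recomputed under them. With joint normalization of 9 conditions, 3.74% of the windows were lower in Rif1- wing discs, 16.7% higher and 8.98% lower in Rif1PP1 wing discs, 5.74% higher and 14.0% lower in Rif1-/+ cells, and 0% higher in endocycling than in mitotic cells. With centering on the median, 7.23% were higher and 0% lower in Rif1- wing discs, and 17.5% were higher and 0% lower in Rif1PP1 wing discs. Centering and deposited values both gave 4.49% higher in Rif1- mitotic follicle cells, 3.74% higher in endocycling than in mitotic cells and 3.49% lower in follicle cells than in wing discs. Deposited values gave 0% lower in Rif1- and 0.748% lower in Rif1PP1 wing discs. Leaving out windows beyond 1 gave 0% lower in Rif1- wing discs. With every 10th window, 0% were lower in Rif1- and 2.44% lower in Rif1PP1 wing discs, and 4.88% were lower in endocycling than in mitotic cells. With the strips moved outward by 0.1 Mb, the mean of the inner minus that of the outer windows on X was -0.103 in Rif1- endocycling cells, -0.0549 in wild-type endocycling cells and -0.0861 in wild-type mitotic cells, against 0.0349, 0.0476 and 0.076 in the strips as defined. The cause of these shifts was not tested. The mean level of a strip stayed within 0.1 in all 72 values, and the mean change per arm moved in 11 of 160. Neighbouring windows overlap, replicate values and depth are unknown, and so small differences cannot be told from replicate variation.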
